A study of Danio rerio with 12 samples.

Results

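Macrophages that were pulling on the ends of a ruptured brain vessel, the stage labelled traction, were compared with macrophages that had reached the lesion, the stage labelled arrival. The members of the comparison are 4 of the 12 libraries of the series, 2 from traction and 2 from arrival, chosen by their labelled cell type and lesion stage. All 4 came from zebrafish larvae of strain ABGO that carried Tg(coro1a:Kaeda; flk1:eGFP), in which a photoconvertible protein (labelled Kaeda, and red once converted) is driven by coro1a and a green one marks vessels through flk1. The promoter of coro1a is active in leukocytes of all kinds, neutrophils included, so it does not by itself single out macrophages. Per the labels, about 80 cells in 20 animals were converted with a laser, the heads were collected and dissociated with trypsin, the cells were flow sorted, and cDNA was made with Smart-seq2, a full-length protocol for very small inputs. Uninjured macrophages of the same line (2 libraries) and endothelial end cells from Tg(flk1:DenNTR; coro1a:eGFP) larvae, marked with Dendra2(red), at the same stages (2 libraries each) serve as context. The age of the larvae is not given in the sources used here. Nothing in the labels says that replicates came from separate animals. A p-value therefore measures only the spread between libraries, which the fit here shares over all 12 of the series.

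Macrophages are the phagocytes that survey tissue, engulf debris and haemoglobin, and direct inflammation and its end. The study's title concerns brain vessel ends that are rejoined by a macrophage that adheres to them and draws them together. Movement and pulling by a cell use actin filaments that are built and cut by branching and severing proteins, myosin motors that contract them, Rac-family GTPases and PI3K that set where they form, and integrins or cadherins that couple them to neighbours and matrix.

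Values are RPKM, reads scaled by gene length and library size, so levels of different genes are per length. Pairs of values are written with replicate 1 first. A gene is called without overlap when both libraries of one stage lie above both libraries of the other, and its gap is the distance between the nearest libraries of the stages on the log2(RPKM + 1) scale, negative where traction is lower. Differences are traction minus arrival of the stage means on the same scale, with their SE, and on this scale they understate the change of low genes. The SE rests on a spread shared over all 12 libraries in 6 groups, so it is not the spread of the 4 compared libraries alone.

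The 4 libraries held 21285807 and 35419955 reads in genes at traction and 19599417 and 37292238 at arrival. They detected 11535 and 17011 genes at traction and 14748 and 11552 at arrival. Replicates of a stage were not more alike than libraries of different stages. The Spearman correlation over the 17613 tested genes (which are no replicates) was 0.522 within traction and 0.442 within arrival, against 0.377 to 0.60 between the stages. In bulk libraries fewer cells of a type and less RNA per cell cannot be told apart.

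The labelled cell type was checked against its markers. Macrophage marker genes summed to 35257 and 13465 RPKM at traction and to 38968 and 31403 RPKM at arrival, over 44 genes, of which 6 and 6 were at 0 at traction and 5 and 6 at arrival. They were the highest marker list in each of the 4 libraries, and the chemokine gene ccl34b.1 alone gave 22544 and 5698 RPKM at traction and 22323 and 13832 RPKM at arrival. Endothelial markers summed to 29.9 and 95.7 RPKM at traction and 90.7 and 137 RPKM at arrival over 21 genes. The endothelial cadherin cdh5 reached at most 0.0186 RPKM in the 4 libraries.

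Markers of other cells were not evenly spread, and traction replicate 1 stood apart. Neutrophil markers, 9 genes, summed to 3080 RPKM in traction replicate 1, against 218 RPKM in traction replicate 2 and 140 and 557 RPKM at arrival. The neutrophil lysozyme lyz was at 1447 and 1.22 RPKM at traction and at 0 in both arrival libraries. The neutrophil marker npsn was at 121 and 0 RPKM against 11.3 and 0 RPKM, and the collagenase mmp13a was at 426 and 7.01 RPKM against 0.0240 and 0 RPKM. These neutrophil genes were therefore high in a single traction library. Photoreceptor and lens markers, 45 genes, likewise summed to 2361 RPKM in traction replicate 1, against 39.2 in traction replicate 2 and 197 and 21.7 RPKM at arrival. Of these, the cone genes GNAT2 and ARR3 were at 226 and 308 RPKM in traction replicate 1 and at 3.1 and 0.197 RPKM in traction replicate 2.

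Epidermal markers were high in both traction libraries, at 233 and 1047 RPKM over 19 genes, against 17.3 and 32.2 RPKM at arrival. They reached 1492 RPKM in uninjured macrophage replicate 1 and 54.9 RPKM in replicate 2. At traction 9 and 6 of the 19 were at 0, and at arrival 9 and 15. Of the 13 tested, 6 were higher at traction without overlap (46.2%, against 14.9% of all tested genes) and 0 were lower (against 9.39%). The simple-epithelium keratin krt4 was at 35 and 234 RPKM against 0.0413 and 0 RPKM, and the epithelial adhesion molecule epcam at 13.4 and 322 RPKM against 0.0346 and 0.0182 RPKM. The basal-cell factor TP63 reached at most 0.584 RPKM in the 4 libraries. Radial glia and oligodendrocyte markers, 16 genes, summed to 1262 and 518 RPKM at traction and 613 and 129 RPKM at arrival, and 5 of 12 tested were higher without overlap (41.7%), such as the Notch target her4.1 at 118 and 20.8 RPKM against 0.106 and 0 RPKM. The astroglial filament GFAP was at 0 and 3.08 RPKM against 0.0381 and 0 RPKM. Lymphocyte, mast cell and thrombocyte markers summed to 194 and 117 RPKM against 13.3 and 134 RPKM, and 5 of 13 tested were higher without overlap (38.5%). The thrombocyte integrin itga2b was at 21.3 and 12.8 RPKM against 0.0136 and 0 RPKM, and the thrombopoietin receptor mpl at 6.74 and 4.51 RPKM against 0 and 0 RPKM. Only the epidermal sums separated the stages, and the marker sums of all other lists, macrophage markers included, overlapped between them. The part that RNA of other cells plays in the gene differences below was not tested.

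**Figure D1:**
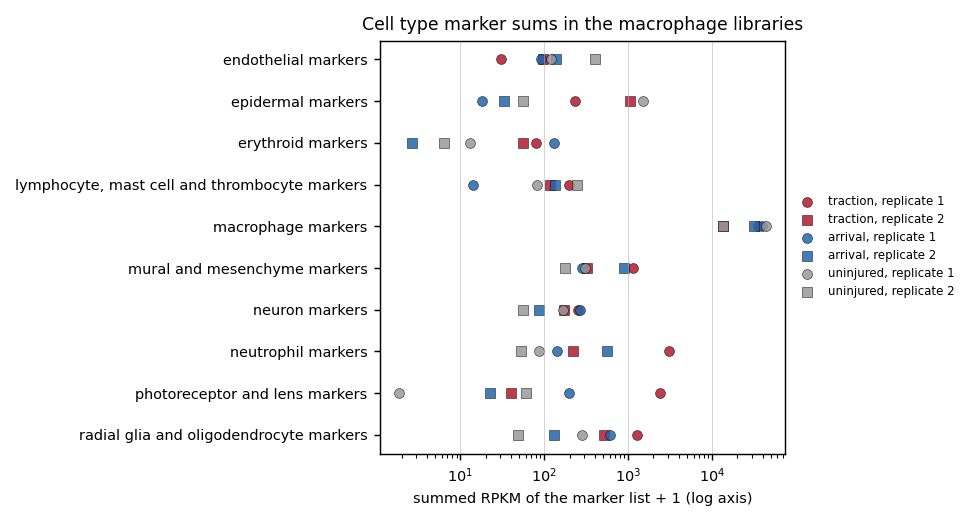
Summed RPKM of each cell type marker list in the 6 macrophage libraries, plus 1 on a log axis. Points are single libraries, red for traction, blue for arrival and grey for uninjured. Macrophage markers are the highest list in every library, and epidermal markers are higher in both traction libraries (233 and 1047 RPKM) than in both arrival libraries (17.3 and 32.2 RPKM).

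Across all 17613 tested genes, 1 passed limma at an adjusted p under 0.05, 0.00568% of those tested. An unadjusted p under 0.05 was reached by 591 genes, 488 higher and 103 lower at traction, where chance alone gives 881. By the description of overlap, 4276 genes (24.3%) had stages that did not overlap, 2623 higher (14.9%) and 1653 lower (9.39%) at traction. A gap of at least 1, which is a factor of 2 in RPKM + 1, was reached by 1038 genes higher (5.89%) and 371 lower (2.11%), so that 73.7% of them were higher. With quantile normalization the split was 636 higher and 547 lower, 53.8% higher. The direction of the split turned without arrival replicate 1, to 1574 higher and 1848 lower (46.0% higher), and the share was 55.5% without arrival replicate 2, 62.2% without traction replicate 2 and 84.2% without traction replicate 1. The median difference of all tested genes was 0.11, and -0.03 with quantile normalization. That median, against which the medians of gene lists are to be read, was 0.29 without traction replicate 1, -0.02 without traction replicate 2, 0.05 without arrival replicate 1 and 0.38 without arrival replicate 2. Many wide-gap genes were detected at a single stage: 371 of the 1038 higher genes were at 0 in both arrival libraries, and 44 of the 371 lower genes were at 0 in both traction libraries. The typical higher gene had a median of 15 and 8.47 RPKM at traction and 0 and 0 RPKM at arrival, and the typical lower gene 0.170 and 2.36 RPKM at traction and 21.5 and 13.2 RPKM at arrival. On the recovered reads, limma with voom weights called 252 genes (1.43%), 228 higher and 24 lower, of which 249 were without overlap.

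The gene that passed was si:rp71-1c10.11 (ENSDARG00000096721), which has no functional annotation in the tables used. It stood at 927 and 5126 RPKM at traction and at 0 RPKM in both arrival libraries, and at 0 and 0.657 RPKM in uninjured macrophages. Set against a floor of 3 reads in the shallower arrival library, the lower traction library was at least 3004-fold higher. The limma difference was 11.09 ± 1.62 (SE), with an adjusted p of 0.0393 by limma and 8.64e-07 by voom. The call was lost without arrival replicate 1 (limma adjusted p 0.351) or without arrival replicate 2 (0.115). It held without traction replicate 1 (0.0148) and without traction replicate 2 (0.0441). Under 8 other settings of filter, scaling, pseudocount, variance or libraries it was lost as well, with a limma adjusted p of 0.0564 to 0.952.

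The other genes with the widest gaps above arrival had various roles. SELENOM, a selenoprotein of the endoplasmic reticulum, was at 253 and 536 RPKM at traction and at 0 in both arrival libraries, while uninjured macrophages held 80.8 and 0 RPKM. PDIA4, a disulfide isomerase that folds proteins in the same compartment, was at 85 and 110.3 RPKM against 0 and 0 RPKM, and at 25.3 and 39.2 RPKM in uninjured macrophages. COPZ2, a subunit of the coat of vesicles that return proteins to that compartment, was at 70.33 and 57.8 RPKM against 0 and 0 RPKM. All 3 were thus undetected at arrival and present in both traction libraries. For PDIA4 the zero lay at arrival rather than at baseline, since both uninjured libraries held it. SELENOM was at 0 in uninjured replicate 2 as well, so its baseline was not settled.

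negaly6, annotated in the authors' deposited table as related to mouse UPAR, the urokinase receptor, was at 182 and 533 RPKM at traction and at 0 in arrival and uninjured libraries alike. PHLDA2, a small pleckstrin-homology protein, was at 145 and 700.1 RPKM against 0.0555 and 0.146 RPKM. APOD, a carrier of small lipids, was at 47.2 and 123 RPKM against 0 and 0 RPKM and was also at 0 in uninjured macrophages. g0s2, an inhibitor of the release of fatty acids from lipid droplets, was at 46.7 and 649.9 RPKM against 0 and 0.0670 RPKM. Here arrival was the low point of the series of stages, because uninjured macrophages held 310.4 and 907 RPKM of g0s2. The myc-family gene mych was at 55.6 and 92.7 RPKM against 0.0409 and 0.0107 RPKM, and the methionine sulfoxide reductase MSRB1 at 93.0 and 40.2 RPKM against 0 and 0 RPKM. The actin gene cfl1l and 4 genes known by clone names (si:ch211-229d2.5, si:ch211-153b23.5, si:dkey-205h13.2 and si:dkey-16l2.17) completed this set, and si:dkey-205h13.2 among them was at 81.4 and 1625 RPKM against 0 and 0 RPKM. None of these genes passed limma over all genes, whose adjusted p ran from 0.176 for negaly6 and si:ch211-229d2.5 to 1. Of the 15 widest-gap higher genes, 8 had at least 1 RPKM in uninjured macrophage replicate 1 and 3 in replicate 2.

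The widest gaps below arrival were narrower. The interferon-response factor irf9, which joins STAT proteins to switch on interferon-stimulated genes, was at 0 in both traction libraries and at 36.7 and 22.1 RPKM at arrival, and uninjured macrophages held 0 and 0.0444 RPKM. IGF1, an insulin-like growth factor, was at 0 and 0 RPKM against 32.6 and 13 RPKM, with 0.0286 and 0 RPKM in uninjured cells. MAP2K7, a kinase upstream of JNK, was at 0 and 0 RPKM against 40.7 and 10.7 RPKM. These 3 genes were thus seen at arrival and hardly in the other macrophage libraries. The same held for the lysine methyltransferase SETD6, at 0 and 0 RPKM against 55.1 and 8.16 RPKM, and for the replication-complex gene GINS2, at 0 and 0.530 RPKM against 62.0 and 21.7 RPKM. EBP, a sterol isomerase of cholesterol synthesis, was at 0.0211 and 0 RPKM against 25.6 and 14.1 RPKM. si:dkey-27p18.3 was at 0 and 0 RPKM against 56.3 and 23.8 RPKM, and at 156 and 22 RPKM in uninjured macrophages. The remaining genes of this set were DIPK2B, TMEM41B, OPA3, te2ip, si:dkey-9k7.3, zgc:66447, TCEA3 and NOC3L, each at most 1.71 RPKM at traction and at least 9.29 RPKM at arrival.

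**Figure D2:**
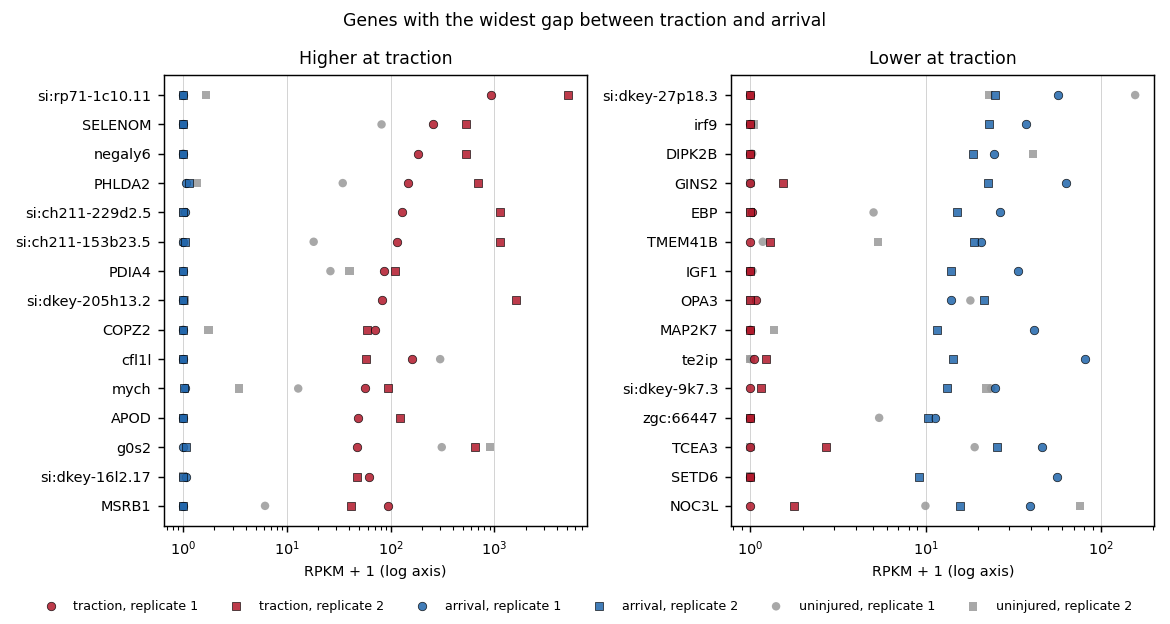
RPKM + 1 on a log axis of the 15 named genes with the widest gap above arrival (left) and below arrival (right), 1 row a gene. Red marks traction, blue arrival and grey uninjured macrophages, with circles for replicate 1 and squares for replicate 2. The higher genes lie at 40.2 RPKM or more in both traction libraries and at or near 0 at arrival, and the lower genes show the reverse with smaller distances.

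Glycolysis makes ATP without oxygen, and its genes rise in the response to low oxygen. Of 59 tested members of the glycolysis and hypoxia list, 37 overlapped between the stages, 19 were higher without overlap (32.2%, against 14.9% of all tested genes) and 3 were lower (5.08%, against 9.39%), and 46 of 59 differences were above 0. The median difference was 0.78, and 0.58 with quantile normalization. The median was 1.06 without traction replicate 1, 0.12 without traction replicate 2, 0.06 without arrival replicate 1 and 1.18 without arrival replicate 2. Relative to the median of all genes in the same setting it was 0.67 as measured, but 0.14 without traction replicate 2 and 0.01 without arrival replicate 1. The triose phosphate isomerase copy TPI1 (ENSDARG00000025012) was at 39.0 and 66.6 RPKM at traction and 0 and 0 RPKM at arrival. Uninjured macrophages held 33.2 and 30.4 RPKM of TPI1, so arrival was its low stage. An enolase, ENO1 (ENSDARG00000013750), was at 35.6 and 9.17 RPKM against 0 and 0 RPKM. The angiogenic factor VEGFA, which signals to endothelium, was at 19.6 and 10.0 RPKM against 0 and 0 RPKM, and at 0.302 and 0 RPKM in uninjured macrophages. P4HA1, a prolyl hydroxylase needed for collagen, was at 34 and 51 RPKM against 6.39 and 8.31 RPKM. These 4 were the widest gaps of the list. Other members, picked after their values were seen, had moderate gaps at higher levels: GAPDHS was at 2132 and 4047 RPKM against 1023 and 1533 RPKM, GPI at 126 and 176 RPKM against 65.1 and 67.8 RPKM, and NDRG1 (ENSDARG00000032849) at 625 and 328 RPKM against 77.2 and 146 RPKM. Among the 3 lower members was the hypoxia and stress gene DDIT4, likewise picked after its values were seen, an inhibitor of mTOR. It was at 0 and 9.98 RPKM against 38.3 and 38.2 RPKM. No member passed limma, and 3 of 59 were called higher by voom, against 228 of all 17613 tested genes.

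Chaperone genes of the heat shock and unfolded protein responses help proteins fold. Of 49 tested, 17 were higher without overlap (34.7%, against 14.9% of all tested genes) and 5 lower (10.2%, near the 9.39% of all tested genes), with a median difference of 0.51 and 0.43 under quantile normalization. The median was 0.89 without traction replicate 1, 0.10 without traction replicate 2, 0.13 without arrival replicate 1 and 1.01 without arrival replicate 2. Beside PDIA4, the endoplasmic reticulum genes CRELD2 (21.5 and 4.77 RPKM against 0 and 0 RPKM) and SDF2L1 (56.3 and 58.3 RPKM against 0.0337 and 8.93 RPKM) were higher. So were, among members picked after their values were seen, the chaperone HSP90B1 at 120.1 and 157 RPKM against 55.4 and 69.6 RPKM, and DNAJB11, a co-chaperone of the same compartment, at 94.3 and 63.7 RPKM against 1.31 and 28.1 RPKM. These members act in the endoplasmic reticulum. hspb11, which the authors' deposited table relates to a human ciliary transport protein, was at 30.0 and 12 RPKM against 0 and 0 RPKM. Of 3 cytosolic members, also picked after their values were seen, the inducible chaperone hsp70l was higher at 73.1 and 495 RPKM against 14.5 and 2.80 RPKM, and HSP90AB1 was lower, at 535 and 469 RPKM against 677 and 742 RPKM. The constitutive HSPA8 (ENSDARG00000068992) overlapped, at 1250 and 2349 RPKM against 1290 and 2842 RPKM. Voom called 1 of the 49 members higher, against 228 of all 17613 tested genes.

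Heme and iron genes, which break down heme and store the iron that red cell debris brings, had 13 of 38 tested members higher without overlap (34.2%, against 14.9% of all tested genes) and 1 lower (2.63%, against 9.39%). The median difference was 0.54, and 0.29 with quantile normalization. It was 1.33 without traction replicate 1, 0.22 without traction replicate 2, 0.33 without arrival replicate 1 and 1.19 without arrival replicate 2. The ferritin-like fthl28 was at 849.6 and 1987 RPKM at traction, 220.5 and 291 RPKM at arrival and 137 and 70.33 RPKM in uninjured macrophages. The peroxidase prdx1 was at 139 and 1034 RPKM against 57.2 and 8.76 RPKM. NQO1, a quinone reductase of the oxidative stress response, was at 3.61 and 861 RPKM against 0 and 0 RPKM, so that traction replicate 2 held nearly all of it. HMOX1, the heme oxygenase itself, overlapped: 3262 and 819 RPKM at traction against 817 and 2333 RPKM at arrival, both above the 290.2 and 141 RPKM of uninjured macrophages. Ferritin copies are similar in sequence, and how their reads were divided is uncertain.

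Proteasome and ubiquitin genes, which break down tagged proteins, had 19 of 57 tested members higher (33.3%, against 14.9% of all tested genes) and 1 lower (1.75%, against 9.39%) without overlap. Their median of 0.68 moved least of these lists when a library was left out, between 0.49 and 0.76. The core subunits PSMB7 (207 and 237 RPKM against 77.2 and 85.7 RPKM) and PSMA5 (157 and 181 RPKM against 5.09 and 68.6 RPKM) were higher, as were PSMA6 (160.4 and 91.7 RPKM against 0.147 and 25.5 RPKM) and the ubiquitin-conjugating enzyme gene ube2d1b (103 and 86.3 RPKM against 19.9 and 45.1 RPKM). As a level the list overlapped, with a mean log2(RPKM + 1) over its members of 4.84 and 5.79 at traction and 4.63 and 4.97 at arrival. Nuclear genes of the respiratory chain had 21 of 92 tested members higher (22.8%) and 3 lower (3.26%), with a median of 0.29. It was 0.16 without traction replicate 1, 0.48 without traction replicate 2, 0.77 without arrival replicate 1 and -0.05 without arrival replicate 2. Cytochrome c1, CYC1, was at 167 and 153 RPKM against 57.4 and 72.9 RPKM, and the complex I subunit NDUFS7 at 539 and 378 RPKM against 212 and 218 RPKM. Of 13 tested genes of the mitochondrial genome, 0 were higher and 2 were lower (15.4%, against 9.39%), mt-nd4l at 208.5 and 229 RPKM against 304 and 432 RPKM and mt-atp8 at 166 and 141 RPKM against 283 and 202 RPKM, and mt-atp8 overlapped with upper-quartile scaling.

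Cytosolic ribosomal protein genes had 1 of 73 tested members higher (1.37%, against 14.9% of all tested genes) and 9 lower (12.3%, near the 9.39% of all tested genes) without overlap. With upper-quartile scaling 0 were higher and 4 lower (5.48%, against 8.48% of all tested genes). Their median of -0.27 turned to 0.10 without traction replicate 2 and 0.14 without arrival replicate 1, and was -0.63 without traction replicate 1 and -0.67 without arrival replicate 2. RPL5 was at 84.4 and 74.1 RPKM against 277 and 139.9 RPKM, and RPS10 at 85.2 and 86.4 RPKM against 193 and 138 RPKM. Translation factors had 7 of 65 higher (10.8%) and 12 lower (18.5%), with a median of -0.01. Among the lower were the initiation factors EIF3I, at 190.3 and 178 RPKM against 362 and 309.9 RPKM, and EIF3CL, at 28.6 and 40.0 RPKM against 135 and 94.7 RPKM.

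**Figure D3:**
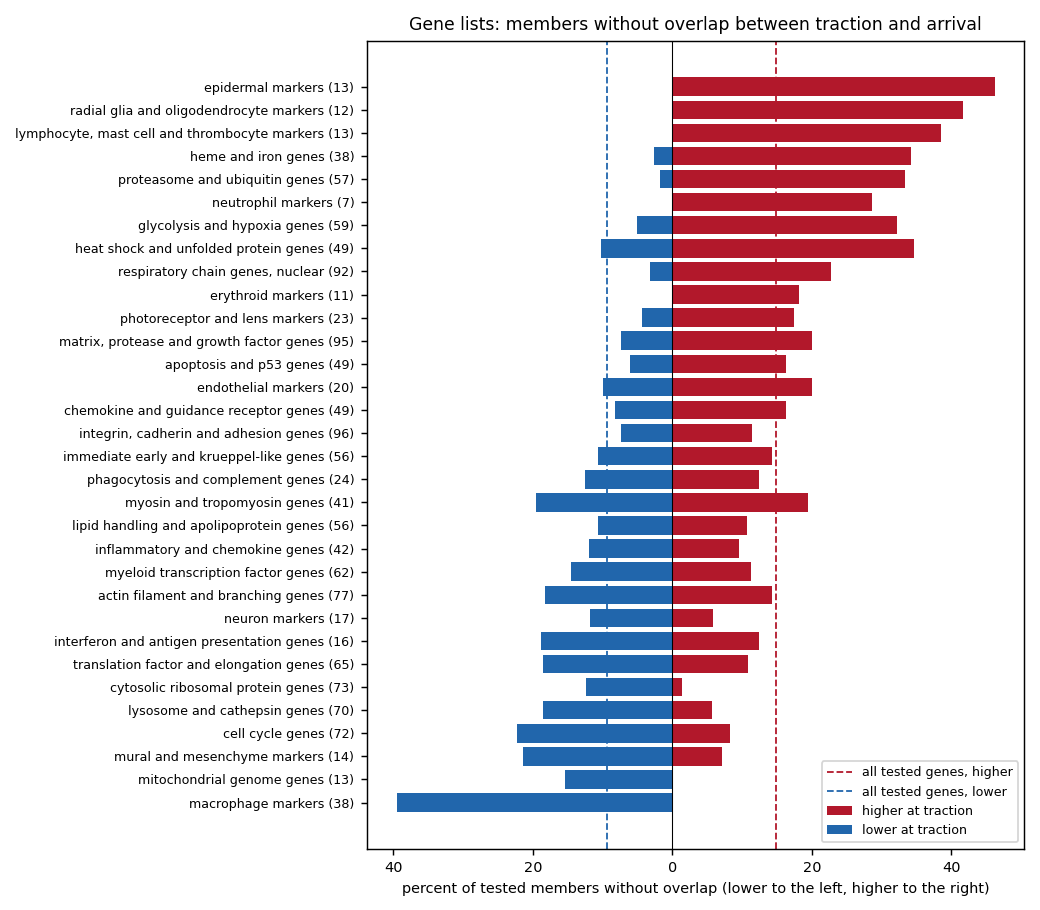
Percent of the tested members of gene lists (number in brackets) that were without overlap between the stages, lower at traction to the left and higher to the right. Dashed lines give the same shares over all tested genes, 14.9% higher and 9.39% lower. Glycolysis, chaperone, heme and proteasome lists lie above the line for higher genes. So do the epidermal and glial marker lists and the joint list of lymphocyte, mast cell and thrombocyte markers. Macrophage markers lie farthest above the line for lower genes (39.5%).

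Of 38 tested macrophage markers, 23 overlapped between the stages, 0 were higher and 15 lower without overlap (39.5%, against 9.39% of all tested genes). None passed limma, and 33 of 38 differences were below 0. Voom called 1 of the 38 lower, against 24 of all 17613 tested genes. The median difference was -0.68, -0.70 with quantile normalization and -0.79 with upper-quartile scaling. It was -1.12 without traction replicate 1, -0.28 without traction replicate 2, -1.01 without arrival replicate 1 and -0.59 without arrival replicate 2. Without traction replicate 2 the counts were 7 higher and 18 lower. The widest gap was that of a microfibril-associated glycoprotein gene used to mark zebrafish macrophages, MFAP4 (ENSDARG00000038681), at 10.2 and 8.31 RPKM at traction, 52.8 and 55.7 RPKM at arrival and 44.2 and 30.8 RPKM in uninjured macrophages. A further copy, MFAP4 (ENSDARG00000090783), was at 216 and 99.9 RPKM against 465 and 590.5 RPKM. MFAP4 copies are near-identical in places, so the division of reads between them is uncertain. The chemokine receptor cxcr3.2, which steers macrophages to sites of infection, was at 128 and 151 RPKM against 359 and 367 RPKM, a difference of -1.38 ± 2.32 (SE). The cathepsin S gene ctss2.2 was at 96.5 and 51.4 RPKM against 207 and 181 RPKM. Each of these 4 was thus lower in both traction libraries, and none passed limma (adjusted p of 1 for all 4). The pore-forming macrophage gene MPEG1 was at 342 and 209 RPKM against 479 and 1018 RPKM, and the reporter's own gene CORO1A at 557 and 450.5 RPKM against 625 and 1022 RPKM, a gap of -0.17. The lineage factor IRF8 overlapped at 74.7 and 37.7 RPKM against 49.8 and 74.6 RPKM. Of the marker sums given above, those of epidermal markers separated the same stages. Neutrophil and glial sums overlapped between the stages, with the neutrophil sum highest in traction replicate 1. The part of such cells in the lower macrophage markers was not tested.

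Lysosome and cathepsin genes, the digestive compartment of the phagocyte, had 4 of 70 tested members higher (5.71%) and 13 lower (18.6%). Over all tested genes the shares were 14.9% and 9.39%. The median was -0.22, and it was -0.13 without traction replicate 1, 0.00 without traction replicate 2, -0.41 without arrival replicate 1 and 0.04 without arrival replicate 2. LGMN, an asparaginyl endopeptidase, was at 279.9 and 388 RPKM against 705 and 663 RPKM. The proton pump subunit ATP6V0A1 was at 40.1 and 81.4 RPKM against 4.66 and 23.5 RPKM, and the cathepsin CTSO at 6.17 and 2.84 RPKM against 0 and 0 RPKM, so that individual members went both ways. Genes of phagocytosis and complement were 3 higher and 3 lower of 24 tested, 12.5% each, against 14.9% and 9.39% of all tested genes. Their median of 0.10 was -0.10 with quantile normalization. The scavenger receptor stab1 was at 4.71 and 15.1 RPKM against 39.0 and 58.7 RPKM, and the integrin ITGAV at 8.25 and 3.05 RPKM against 20.6 and 17.9 RPKM. ITGB3, a partner of that integrin, was at 10.4 and 8.71 RPKM against 0.217 and 3.26 RPKM.

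Inflammatory and chemokine genes showed no common direction. Of 42 tested, 4 were higher (9.52%, against 14.9% of all tested genes) and 5 lower (11.9%, against 9.39%) without overlap, and the median of 0.24 became -0.07 with quantile normalization. It was 0.09, -0.07, -0.46 and 1.02 without traction replicate 1, traction replicate 2, arrival replicate 1 and arrival replicate 2. The cytokine gene il21 was at 0.116 and 13.7 RPKM against 53.3 and 172 RPKM, and caspb, an inflammatory caspase, at 0 and 6.38 RPKM against 21.3 and 88.1 RPKM. ARG2, an arginase that competes with nitric oxide synthesis for arginine, was at 33.6 and 5.83 RPKM against 0 and 0 RPKM. These 3 had the widest gaps of the list. The tumour necrosis factor copy tnfb overlapped, at 202 and 402 RPKM against 278 and 680.2 RPKM, and the 48.8 and 227 RPKM of uninjured macrophages overlapped traction but not arrival. Its relative tnfa did not pass the filter and was at 1.97 and 0 RPKM against 0 and 0 RPKM. The tissue factor gene f3b, which starts coagulation, also overlapped at 105 and 282 RPKM against 88.6 and 291 RPKM, with 0 and 0.0602 RPKM in uninjured macrophages. Both f3b and HMOX1 were thus above uninjured levels at both stages, and did not separate the stages from each other.

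Interferon and antigen presentation genes were 2 higher (12.5%, against 14.9% of all tested genes) and 3 lower (18.8%, against 9.39%) of 16 tested. Their median was -0.15. Beside irf9, the interferon regulatory factor irf3 was at 4.19 and 0.875 RPKM against 24.9 and 15.6 RPKM. The third lower gene carried the symbol irf1b in the reference table but is related to another human gene (TXD15) in the authors' deposited table, so its identity is uncertain, and it overlapped with upper-quartile scaling. cd74b, an invariant chain of class II antigen presentation, was higher at 85.8 and 11.05 RPKM against 0 and 0.108 RPKM. Chemokine and guidance receptor genes were 8 higher (16.3%) and 4 lower (8.16%) of 49 tested, near the shares of all tested genes. Their median was 0.00, and -0.25 with quantile normalization. The chemokine receptor CXCR4 (ENSDARG00000041959) was at 664 and 112 RPKM against 0.335 and 40.0 RPKM, while uninjured macrophages held 21.0 and 1.70 RPKM. S1PR1, a receptor for a blood-borne lipid that guides leukocytes, was at 21.0 and 4.14 RPKM against 0 and 0 RPKM. EFNA1, an ephrin, was at 5.28 and 10.9 RPKM against 0 and 0 RPKM, and the Slit receptor ROBO2 at 2.61 and 10.3 RPKM against 0.0117 and 0 RPKM.

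**Figure D4:**
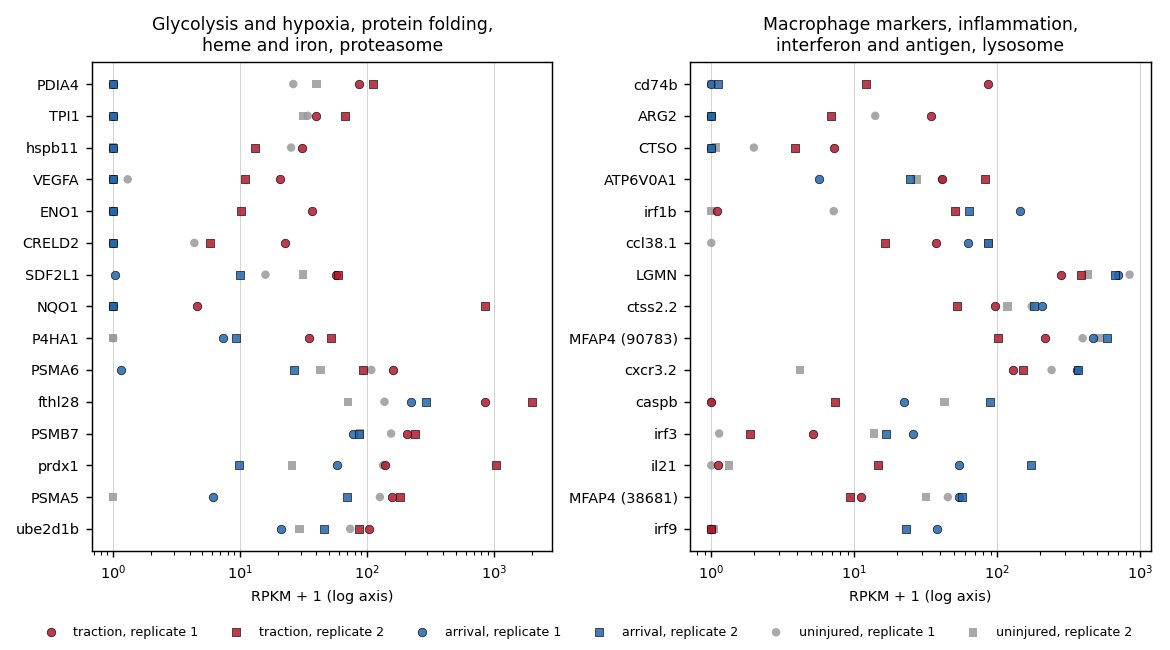
RPKM + 1 on a log axis of named members of the stress, metabolic and protein breakdown lists (left) and of the macrophage, inflammatory, interferon and lysosome lists (right), 1 row a gene, without overlap between the stages. Colours and symbols are those of the other plots of single genes. Only members with the widest gaps are drawn, up to 4 a list, so the panels do not show the direction of whole lists. In the left panel both traction libraries lie to the right, as for PSMB7 at 207 and 237 RPKM against 77.2 and 85.7 RPKM. Not drawn there are the members lower without overlap: 3 of glycolysis and hypoxia, 5 chaperone, 1 heme and iron and 1 proteasome gene. In the right panel the genes from irf1b downward lie lower at traction.

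The machinery of force and adhesion, on which the study's title bears, had members in both directions. Actin filament and branching genes were 11 higher (14.3%, near the 14.9% of all tested genes) and 14 lower (18.2%, against 9.39%) of 77 tested. Their median was -0.22. The median was between -0.29 and -0.03 with any 1 of the 4 libraries left out. The cofilin-like cfl1l, of a family that severs actin filaments, was at 158 and 57.3 RPKM at traction and 0 and 0 RPKM at arrival, and at 299.6 and 0 RPKM in uninjured macrophages. WASL, which activates the Arp2/3 branching complex, was at 5.49 and 21.5 RPKM against 0.0364 and 0 RPKM. The coronin coro1b was at 8.19 and 5.28 RPKM against 0.205 and 0 RPKM, and the formin FMNL3, which elongates filaments, at 10.3 and 3.46 RPKM against 0 and 0 RPKM. These 4 had the widest gaps of the list, and all 4 were higher in both traction libraries, at low to moderate levels. The 14 lower members had narrower gaps and so are not among these 4, which therefore do not show the direction of the list.

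Myosin and tropomyosin genes were 8 higher and 8 lower of 41 tested, 19.5% each, against 14.9% and 9.39% of all tested genes. Their median of 0.31 was -0.15 with quantile normalization, -0.01 without traction replicate 2 and 0.12 without arrival replicate 1. The tropomyosin tpm4a, which stabilises filaments for myosin, was at 54.0 and 16.9 RPKM against 0.0214 and 0.112 RPKM, with 0 and 0 RPKM in uninjured macrophages. MYLK, the kinase that switches on myosin II, was at 5.56 and 3.81 RPKM against 0.459 and 0 RPKM, and its gap closed with quantile normalization. In the other direction, the leukocyte motor MYO1F was at 18.0 and 17.1 RPKM against 52.8 and 72.0 RPKM, and LIMK2, a kinase that inhibits cofilin, at 0 and 0.275 RPKM against 10.3 and 2.62 RPKM.

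The Rac GTPase rac1a was at 68.5 and 57.4 RPKM at traction and 59.9 and 53.7 RPKM at arrival, a difference of 0.14 ± 1.77 (SE), and at 55.5 and 0.0389 RPKM in uninjured macrophages. The leukocyte Rac gene rac2 overlapped at 252 and 49.0 RPKM against 346 and 125 RPKM, and RAC1 (ENSDARG00000087954), which the authors' deposited table relates to human RAC2, was low at 0.095 and 2.09 RPKM against 0.361 and 2.82 RPKM. The 2 named genes that load Rac with GTP were lower without overlap, and neither passed limma (adjusted p of 1): DOCK8 at 4.26 and 7.65 RPKM against 24.6 and 50.3 RPKM, and PREX1 at 4.29 and 1.57 RPKM against 7.38 and 16 RPKM. Uninjured macrophages held 44.9 and 123 RPKM of DOCK8 and 34.4 and 64.9 RPKM of PREX1, above all 4 lesion libraries for PREX1 and overlapping arrival for DOCK8. Of the catalytic PI3K genes, the leukocyte forms PIK3CD (0 and 0.0170 RPKM against 9.80 and 0.501 RPKM) and PIK3CG (17.5 and 4.55 RPKM against 22.7 and 22.8 RPKM) were lower without overlap, and PIK3CB (18.9 and 6.26 RPKM against 5.79 and 22 RPKM) and PIK3CA (0 and 1.19 RPKM against 0 and 0.400 RPKM) overlapped. PIK3C3, the class III enzyme of endosomes and autophagy, was higher at 12.0 and 7.42 RPKM against 0 and 0 RPKM. Uninjured macrophages held 6.46 and 9.28 RPKM of it, so arrival was its low stage. Of the regulatory subunits, PIK3R1 and PIK3R3 overlapped, and pik3r2 was at 2.94 and 3.56 RPKM against 1.54 and 2.27 RPKM, a difference of 0.56 that was -0.18 with quantile normalization.

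Integrin, cadherin and adhesion genes were 11 higher (11.5%, against 14.9% of all tested genes) and 7 lower (7.29%, against 9.39%) of 96 tested. Their median of 0.01 was -0.17 with quantile normalization. PARVB, which links integrins to actin, was at 45.4 and 11.8 RPKM against 0 and 0 RPKM and at 0 in both uninjured libraries. NEDD9, a scaffold of integrin signalling, was at 3.57 and 16.7 RPKM against 0 and 0 RPKM. The collagen-binding integrin ITGA11 was at 0 and 0 RPKM against 4.86 and 11.9 RPKM. The leukocyte integrin chain itgb2 was at 78.7 and 34.3 RPKM against 84.0 and 121 RPKM, a gap of -0.09, and the 3 measured ITGB1 copies were at most 2.26 RPKM in the 4 libraries and overlapped. PARVB, NEDD9 and ITGA11 were named for their wide gaps, and itgb2 and the ITGB1 copies whatever their result. The sizes of their gaps are therefore not to be compared. Matrix, protease and growth factor genes were 19 higher (20%) and 7 lower (7.37%) of 95 tested, with a median of 0.07, and included VEGFA and WNT7A (8.33 and 5.70 RPKM against 0.0178 and 0 RPKM) among the higher and IGF1 among the lower.

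**Figure D5:**
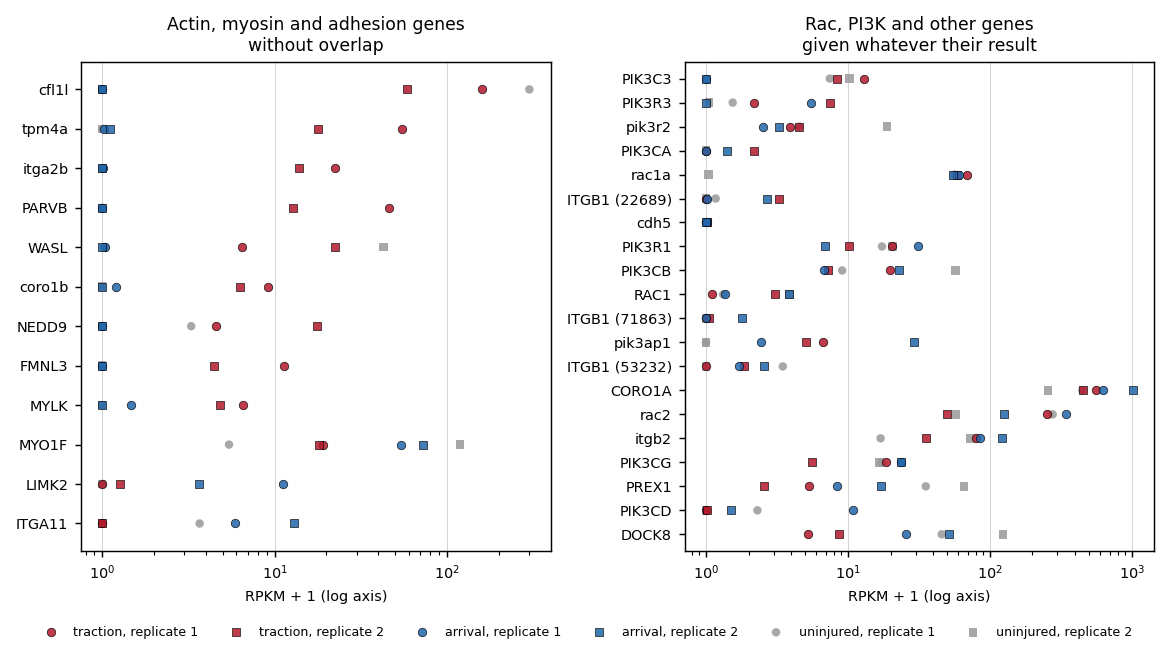
RPKM + 1 on a log axis of actin, myosin and adhesion genes without overlap (left) and of Rac, PI3K, integrin and reporter genes (right), 1 row a gene. On the left only the members with the widest gaps are drawn, up to 4 a list. On the right, DOCK8, PREX1 and PIK3C3 are shown for their wide gaps and the other genes whatever their result. Colours and symbols are those of the other plots of single genes. In the left panel tpm4a and PARVB lie right of both arrival libraries, and in the right panel rac1a has its 4 lesion values between 53.7 and 68.5 RPKM.

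Of 72 tested cell cycle genes, 6 were higher (8.33%, against 14.9% of all tested genes) and 16 lower (22.2%, against 9.39%) without overlap, with a median of -0.19. It was 0.00 without traction replicate 1, -0.49 without traction replicate 2, -0.23 without arrival replicate 1 and 0.33 without arrival replicate 2. MCM10, which starts DNA replication, was at 0 and 0.00995 RPKM against 12.5 and 3.70 RPKM, beside GINS2. The mitotic kinase CDK1 (ENSDARG00000087554) went the other way, at 42.7 and 24.4 RPKM against 0.0373 and 0.0196 RPKM, as did the cyclin CCND2 at 39.3 and 26.3 RPKM against 0 and 2.87 RPKM. Both were also present in uninjured macrophages, CDK1 at 154 and 8.99 RPKM.

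Myeloid transcription factor genes were 7 higher (11.3%) and 9 lower (14.5%) of 62 tested, with a median of 0.17 that was -0.19 with quantile normalization. Over all tested genes 14.9% were higher and 9.39% lower, and the shares of the next lists are to be read against these. MAFA, a large Maf factor, was at 7.89 and 9.12 RPKM at traction, 55.1 and 34.8 RPKM at arrival and 131 and 88.8 RPKM in uninjured macrophages. id2b, an inhibitor of helix-loop-helix factors, was at 934 and 57.9 RPKM against 23.7 and 0 RPKM. Immediate early and Krueppel-like genes, which respond to handling as well as to signals, were 8 higher (14.3%) and 6 lower (10.7%) of 56 tested, with a median of 0.10. Among them FOSB was at 24.7 and 50.8 RPKM against 0.0643 and 2.21 RPKM, KLF9, a glucocorticoid-responsive factor, at 40.9 and 8.61 RPKM against 0 and 0 RPKM, and egr4 at 6.59 and 21.7 RPKM against 0 and 0 RPKM. Apoptosis and p53 genes were 8 higher (16.3%) and 3 lower (6.12%) of 49 tested, with a median of 0.05, and the higher ones included the pro-apoptotic bcl2l11 (21.5 and 6.94 RPKM against 0 and 0 RPKM) and the caspase-8 inhibitor cflara (6.49 and 9.24 RPKM against 0.0898 and 0.201 RPKM). Lipid handling genes were 6 higher and 6 lower of 56 tested (10.7% each), with APOD and g0s2 as the widest gaps and a median of -0.01. No member of any of the lists passed limma over all genes.

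The authors' own comparison of the same stages gives a p-value to 22183 genes. Their deposited table marks 620 by an unadjusted p under 0.05, fewer than chance alone gives, 469 higher and 151 lower at traction. Of these, 518 were tested here and 360 of those were without overlap, against 24.3% of all tested genes. An adjusted p under 0.05 was reached in the authors' deposited table by 3 genes, all higher at traction: SELENOM (0.000564), negaly6 (0.000937) and PDIA4 (0.00426). Next came COPZ2 and mych at 0.110 each in the authors' deposited table. The lower genes with the smallest p there were irf9 (p = 0.00221), atosb (0.00247), si:dkey-27p18.3 (0.00324), zgc:92360 (0.00530) and SETD6 (0.00563), each with an adjusted p of 1 in the authors' deposited table. atosb was at 0 and 0 RPKM at traction against 20.3 and 5.94 RPKM at arrival, and zgc:92360 at 0 and 0 RPKM against 24.0 and 5.03 RPKM. Of the 252 genes that voom called, 215 were also marked by the authors. Overlap, voom calls and the authors' marks all rest on the same macrophage libraries, so they are not independent of each other.

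Whether macrophages changed differently from the endothelial end cells at the same stages was tested as an interaction in the same limma model. No gene of 17613 passed (0.0%), and voom called 33. An unadjusted limma p under 0.05 for the interaction was reached by 533 genes, where chance alone gives 881. For negaly6, endothelial libraries stayed at 0.372 RPKM or less at traction and arrival, and the interaction was not called. For si:rp71-1c10.11 the endothelial libraries of these stages held at most 1.08 RPKM. Endothelial traction replicate 1 and arrival replicate 2 held most of the photoreceptor marker RNA of the series at 48032 and 36592 RPKM. Without these 2 and macrophage traction replicate 1, limma called 1012 genes between traction and arrival and 1052 in the interaction, with a single macrophage traction library left.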

How the data were processed

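The authors deposited RPKM per gene and library for 33737 Ensembl gene IDs, per the file headers. In a further table for this pair of stages the authors deposited a normalized signal, the mean over each stage of size-factor-scaled counts, and their p-values. The submitters' processing notes name DESeq 1.16.0, HTSeq 0.6.0, TopHat2 2.0.12 and Bowtie2 2.2.3. Genome build, annotation and strandedness are not given in the sources used here. Coordinates are therefore left out, and antisense or overlapping genes cannot be told apart. The members and gene lists were chosen with earlier results of these data known.

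Reads per gene were recovered from the RPKM and the authors' deposited group means, and 100% of values lay within 0.05 reads of a whole number. Library sizes and gene lengths were adjusted toward whole reads in the recovery, so that share is partly forced and no independent check. The RPKM carry no scaling between libraries beyond reads in genes, reads are not molecules, and the 3-read floor set for genes at 0 covers counting error alone. A gene was tested if 2 or more libraries reached 10 reads, scaled to the median depth, and its total was 15 or more, a filter passed by 17613 genes. Since no counts per library were among the tables used, limma 3.58.1 in R 4.3.3 was fitted to log2(RPKM + 1) over 12 libraries and 6 groups, with variances robust and trended on the mean, two-sided, and Benjamini-Hochberg adjustment at 0.05 over all tested genes. limma with voom weights on the recovered reads was an alternative. Of the gene IDs, 22566 had a name, from a table of Ensembl names or a zebrafish protein entry in the authors' tables. An upper-case symbol may denote either of a pair of zebrafish copies.

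Genes were named by rule: the 15 higher and 15 lower named genes with the widest gap, up to 4 members a list with the widest gaps, the 5 smallest p-values of the authors in each direction, any gene passing limma, and reporter, Rac, PI3K, integrin, cadherin and inflammatory genes whatever their result. Genes named outside the rule are markers, or are said to have been picked after their values were seen. Some results that the rule names are not reported here. Same-numbered replicates of different groups did not deviate together, so replicate numbers were not taken to pair libraries.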

Additional observations from a re-analysis of the deposited data

How the results depend on the processing

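The count of genes passing limma, 1 as reported, was 1 with a pseudocount of 10 and with RPKM of at least 5 required in 2 libraries. It was 0 with a pseudocount of 0.1, no filter, quantile normalization, upper-quartile scaling, removal of the most abundant gene, only the 6 macrophage or only the 4 compared libraries, or limma without robust variances, and 252 with voom. Leaving out 1 library gave 0 to 253 genes (253 without traction replicate 1, 65 without traction replicate 2), with the lone library of a stage assumed to vary like the other groups. Without the 3 libraries richest in photoreceptor markers, an alternative chosen after seeing the data, it gave 1012. The cause of these shifts was not tested. Genes without overlap, 4276, became 8377 to 10034 with 1 library left out, since fewer values must then separate, and 9728 without the photoreceptor-rich libraries. Genes higher by a gap of at least 1, 1038, were 256 with a pseudocount of 10, 636 with quantile normalization, 1574 to 4118 with 1 library left out and 4118 without the photoreceptor-rich libraries. The lower ones, 371, were 95, 772 to 2311 and 772 with a pseudocount of 10, 1 library left out and the photoreceptor-rich libraries removed. The interaction count of 0 was 33 with voom and 1052 without the photoreceptor-rich libraries.

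With the replicate number as a block, 1 gene passed limma and 0 had an interaction. The numbers do not appear to pair the libraries, as deviations of same-numbered libraries correlated at -0.211 to 0.140 over pairs of groups. Of 147 named genes without overlap, 8 overlapped with quantile normalization and 5 with upper-quartile scaling, and pik3r2 turned to -0.18 with quantile normalization. With 2 libraries a stage from few cells, the number of cells limits the precision of low genes whatever the depth.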

Other observations

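Beside the comparison of the stages, some wide-gap genes also separated traction from the other libraries of the series. Of the 15 genes with the widest gap above arrival, 1 was listed at 0 in all 4 endothelial libraries of traction and arrival. si:dkey-16l2.17, related in the authors' deposited table to a serine protease (PRS27), was at 61.3 and 45.9 RPKM in macrophage traction and at most 0.0556 RPKM in the other macrophage libraries. Ferritin-like copies outside the named set were far apart between the traction replicates: fthl30 was at 35.4 and 5034 RPKM and fthl31 at 1.80 and 5277 RPKM at traction, against at most 21.4 RPKM at arrival. The gelatinase MMP9 was at 295 and 0 RPKM at traction and at most 0.03 RPKM at arrival. These genes were picked after their values were seen.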
